A study of Mus musculus with 2 samples.

Results

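Mesenchymal-like cells made up 122 of the 3563 barcodes that passed the filters in the E12.5 library of traced cells, a share of 3.42% (95% exact binomial interval 2.85–4.07). They were chosen by measured values of the same library. A member had at least 1 unique molecular identifier (UMI, a tag that counts each captured RNA molecule once) for 4 or more of the 9 genes *Col1a1*, *Col1a2*, *Col3a1*, *Pdgfra*, *Lum*, *Dcn*, *Twist1*, *Foxc1* and *Prrx1*, and none for *Sox10*, *Rgs5* or *Kcnj8*. The levels of these 12 genes are therefore given as a description of how the cells were selected, and nothing is drawn from them. The library comes from *Egr2-Cre* (*Krox20-Cre*); *R26-Tomato* embryos at embryonic day 12.5, in which a cell that has expressed the Cre driver, and all of its descendants, carry the red fluorescent Tomato protein. *Egr2* marks boundary cap cells, the neural crest derivatives that sit where nerve roots meet the spinal cord. The meninges with the dorsal root ganglia and both nerve roots were dissected, Tomato-positive cells of 1 litter were sorted into a single 10x 3′ library, and the labels give the tissue as meninges and the cells as boundary cap cells. A library made in the same way at E11.5 is the other one used here, and the Tomato transcript is not among the counted genes.

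The meninges are the connective tissue layers around the brain and spinal cord. Their fibroblasts secrete collagens and a basement membrane, hold the chemokine *Cxcl12*, make retinoic acid and bone morphogenetic proteins, and express transcription factors of the *Zic* and *Foxc* families. Pericytes, the mural cells of small vessels, lie beside them and share part of the collagen programme.

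The E12.5 library held 3762 barcodes with 23460243 UMIs over 33207 genes. At most 10% mitochondrial UMIs and at least 1000 UMIs were required, which removed 66 and 133 barcodes. The members together held 695783 UMIs. A member held between 1166 and 11247 UMIs, with a median of 5654, and a median of 2499 genes. With 1 library per stage there is no replicate and no test: values are summed UMIs scaled to 1000000 per class (CPM) with exact Poisson 95% intervals, shares have exact binomial intervals, and ratios of CPM have exact intervals for a pair of Poisson sums. All of them cover counting error only, and cells are not replicates. A count of 3 UMIs in all members together, taken as the floor, is 4.31 CPM. CPM is not scaled by gene length, so levels are compared between cells, and a gene named for having the most UMIs of a list is named by its count alone.

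Of the genes that chose the members, *Col3a1*, a fibrillar collagen of soft tissue, had a UMI in all 122 members at a median of 9 UMIs per cell (range 2–37). *Col1a1* and *Col1a2*, the chains of type I collagen, had a UMI in 119 and 116. The small proteoglycans of collagen fibrils, *Lum* and *Dcn*, had one in 116 and 103. The receptor *Pdgfra* and the transcription factor genes of the rule were found in fewer members: *Foxc1* in 57, *Pdgfra* in 53, *Prrx1* in 31 and *Twist1* in 18. The median member had 6 of the 9 genes, and 88 members had 6 or more.

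The members nearest the limit are described here with those further inside it and the barcodes just outside. The 13 members with 4 rule genes held *Col1a1* at 588 CPM, *Lum* at 722, *Zic1* at 521 and *Cxcl12* at 521. The 109 members with 5 or more held them at 897, 1426, 550 and 803 CPM. Just outside, 23 barcodes with 3 rule genes and no *Sox10*, *Rgs5* or *Kcnj8* held *Col1a1* at 331 CPM, *Lum* at 182, *Zic1* at 33.1 and *Cxcl12* at 74.5. The genes required at 0 also set the number: 198 kept barcodes had 4 or more rule genes, and 76 of them were left out, 54 with a *Rgs5* UMI, 23 with *Sox10* and 10 with *Kcnj8*, some with more than 1 of these.

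**Figure D1:**
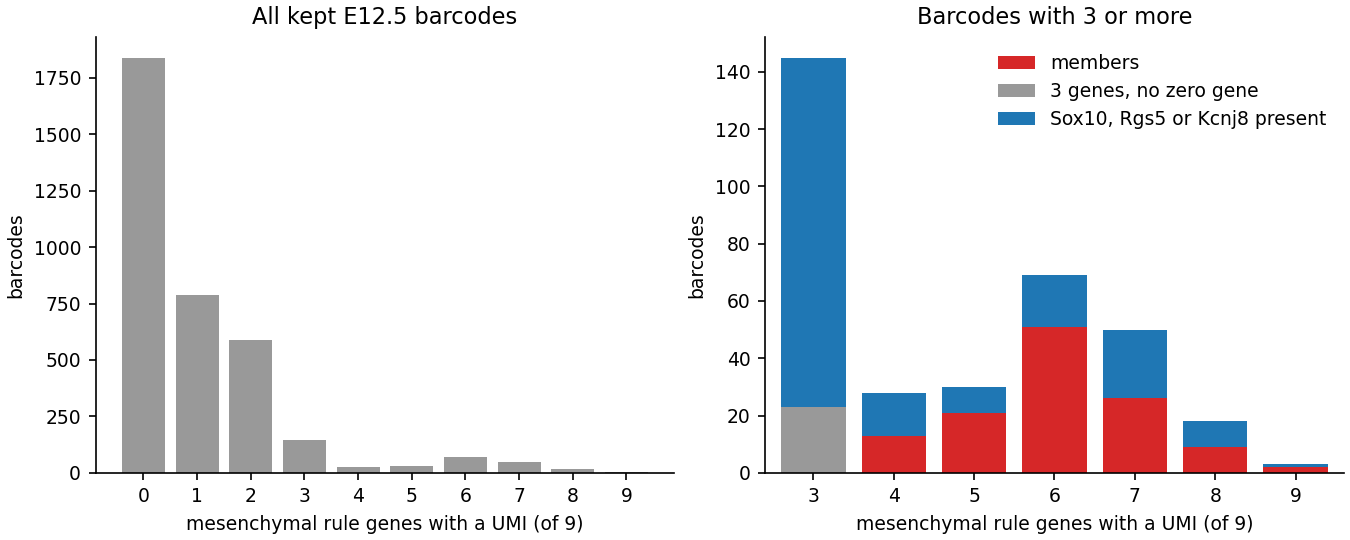
Number of the 9 mesenchymal rule genes with a UMI per kept E12.5 barcode (x axis) against the number of barcodes (y axis), for all 3563 barcodes (left) and for those with 3 or more genes (right, coloured by membership). The 122 members sit at 4 to 9 genes, and the bars fall to 28 barcodes at 4 genes before they rise to 69 at 6.

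To describe what else these cells expressed, their CPM was set against that of the other 3441 kept barcodes. Among genes with at least 100 UMIs in the members, the highest ratios included those of the opioid peptide precursor *Penk*, the chemokine *Cxcl12*, the secreted protein *Islr*, the transcription factor *Zic1* and the type VI collagen chain *Col6a1*. Among 11337 genes with at least 100 UMIs over both groups, the rule genes left out, 1190 were at least 2-fold higher in the members (10.5% of those compared) and 1531 at least 2-fold lower (13.5%). These shares are the background against which the counts of each gene list below are read. The minimum is on both groups together, so a gene rare in the other barcodes passed it only by being high in the members and had to differ, as with *Bmp4* (63 UMIs in the members, 39 in the others) and *Meox2* (72 and 29), and the counts are given as a description. The lower genes include some of other cell types of the library, such as *Hbb-y*, an embryonic globin. By count alone, the genes with the most UMIs in the members included *Malat1*, *Rpl41*, *Tmsb10*, *Actb*, *Rpl13*, *Rpl37a*, *Rps19*, *Rpl32* and *mt-Co3*, which most cells express highly.

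*Penk* had the highest ratio of the genes with at least 100 UMIs in the members, at 233 CPM (198–272) against 2.96 in the other barcodes, a ratio of 78.6 (58.8–106). It was spread unevenly, with a UMI in 38 of the 122 members and up to 14 in a cell. *Cxcl12* was at 779 CPM (715–847) against 16.4, a ratio of 47.4 (41.4–54.2). It had a UMI in 117 members, and the members, 3.42% of the barcodes, held 59.3% of all *Cxcl12* UMIs of the kept barcodes. *Islr* reached 328 CPM (287–373) against 8.09, a ratio of 40.5 (33.2–49.5). *Col6a1* stood at 236 CPM (201–275) against 6.01. Thus *Penk* was detected in fewer members than *Cxcl12*. At a median depth of 5654 UMIs a gene can be missed in a cell that expresses it. The part of this in the uneven spread of *Penk* was not tested.

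Further genes among the 20 with the highest ratio were the cell surface proteoglycan *Gpc3* (1443 CPM in the members, 39.3 in the others), the guidance receptor *Epha7* (1434 and 59.9), the secreted BMP antagonist *Nbl1* (322 and 8.84), the transcriptional repressor *Hic1* (177 and 5.17), the potassium channel *Kcnk2* (285 and 9.77), the lipid transfer protein *Pltp* (345 and 12.7), the collagen-binding *Aebp1* (226 and 7.78), the Wnt receptor *Ror2* (151 and 6.19), the membrane protein *Emp1* (172 and 5.17) and *Zfp804b* (181 and 6.06). *Gpc3* and *Epha7* had a UMI in 118 and 117 members. Of the 20 genes, 12 were also at least 2-fold higher than in pericyte-like cells, the comparison made below, in which 6.57% of all genes compared were. The choice of genes high in the members sets part of this count, so nothing is read from it. A UMI in the mesenchymal-like cells of E11.5 was found for 17.

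A pair of long non-coding RNAs in this set lies beside *Zic* genes. *ENSMUSG00000121005* (*Gm56769*), at chr14:122717454-122717739 on GRCm39, starts 190 bases past the end of *Zic2* on the same strand, and stood at 172 CPM (143–206) against 3.54, a ratio of 48.8 (36.4–65.5). *Gm29478*, at chr9:91285522-91549762, starts 14120 bases past the end of *Zic4* and stood at 407 CPM (361–457) against 12.6, a ratio of 32.4 (27.4–38.3). At so short a distance, reads of a longer *Zic2* transcript and of the first RNA cannot be told apart here. *Zic2* itself was at 15.8 CPM in the members.

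**Figure D2:**
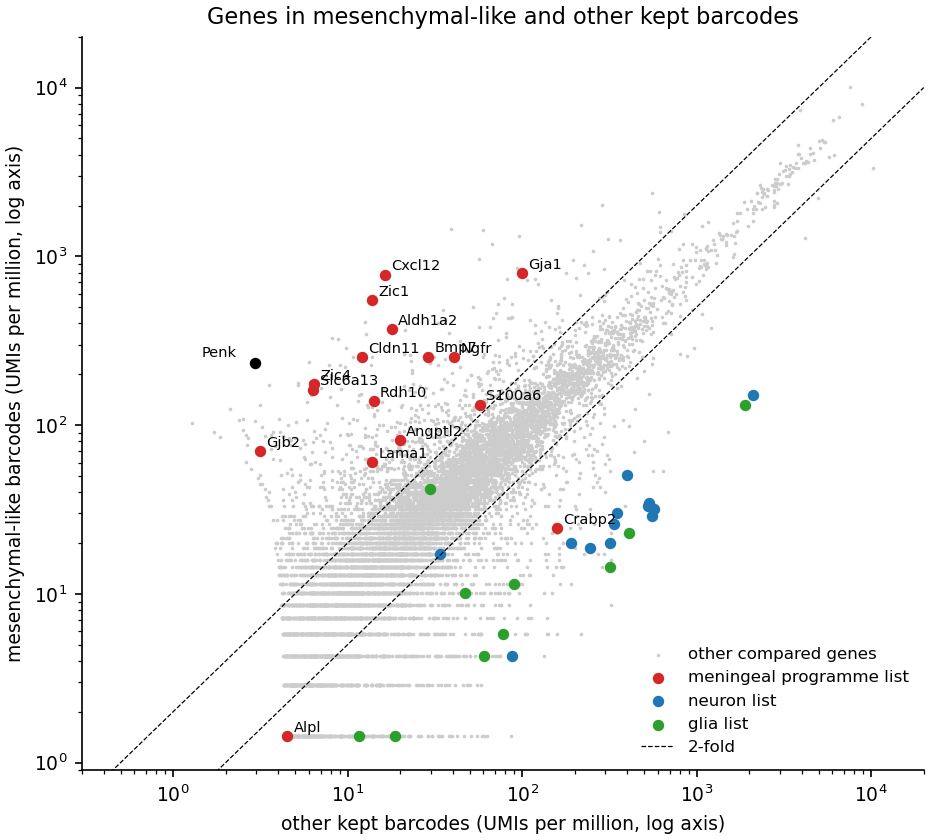
CPM of each compared gene in the 3441 other kept barcodes (x axis) and in the 122 mesenchymal-like cells (y axis), both log axes, with the meningeal, neuron and glia lists in colour and dashed lines at 2-fold; genes at 0 UMIs in the members are not drawn. Meningeal genes such as *Cxcl12* (779 against 16.4 CPM) lie above the upper line, and neuron and glia genes lie mostly below the lower one.

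Promoters of *Cxcl12* and *Islr*, which follow one another in the ranking and had a UMI in 117 and 92 members, are shown because their proximal sequences are unlike. Each is the 248 bases of the RefSeq promoter (table of GRCm38.p6, matched exactly once to GRCm39) that end 2 bases short of the start site in that table, written 5′ to 3′ on the gene's strand. *Cxcl12* is at chr6:117145246-117145493 on the plus strand and *Islr* at chr9:58065840-58066087 on the minus strand, and neither stretch overlaps an annotated exon. Both lie inside the annotated genes, *Cxcl12* at chr6:117144945-117158328 and *Islr* at chr9:58063528-58111589, which have other starts upstream, and which start these cells used was not measured. Capitals mark GC boxes, the letters GGGCGG on either strand (CCGCCC as printed), the last 2 of which overlap.
Cxcl12: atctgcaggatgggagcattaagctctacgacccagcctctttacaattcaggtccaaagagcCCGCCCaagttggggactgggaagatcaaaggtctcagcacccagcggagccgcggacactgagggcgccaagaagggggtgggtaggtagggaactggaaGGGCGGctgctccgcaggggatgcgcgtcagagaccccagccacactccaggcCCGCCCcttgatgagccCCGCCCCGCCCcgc
Islr: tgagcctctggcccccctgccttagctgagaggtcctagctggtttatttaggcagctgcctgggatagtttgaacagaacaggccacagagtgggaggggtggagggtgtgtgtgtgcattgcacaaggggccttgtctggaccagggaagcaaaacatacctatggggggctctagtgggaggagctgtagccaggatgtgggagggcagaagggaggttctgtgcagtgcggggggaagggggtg
The *Cxcl12* stretch holds 5 GC boxes and the *Islr* stretch 0, and neither holds TATAAA or CCAAT on either strand. Of 32851 promoters of this length, 32.5% hold GGGCGG, 12.3% TATAAA and 33.7% CCAAT. These are letter matches and not mapped sites. Of the 20 leading genes, 18 have an entry in the promoter table.

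The meningeal programme was then examined as a list of 32 genes, of which *Foxc1* belongs to the rule. Of the other 31, 29 had a UMI in the members and 17 were compared. In the members, 14 of these 17 were at least 2-fold higher than in the other barcodes, against 10.5% of all genes compared, and 2 were at least 2-fold lower, against 13.5%. The median ratio of the 17 was 8.80, against 0.973 over all compared genes. Of the 14 not compared, because they had too few UMIs in the library, 11 lay above the floor in the members.

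Among the transcription factors of the list, *Zic1*, a zinc finger gene needed for meningeal and dorsal neural development, was at 548 CPM (494–605) against 13.8 in the other barcodes, a ratio of 39.7 (34.1–46.3). It had a UMI in 110 of 122 members (90.2%, 83.4–94.8), against 0.143% of the 1403 neuron-like cells. It was not particular to the members: pericyte-like cells and barcodes set aside by the rule held *Zic1* too. Against pericyte-like cells, the comparison made below, it was not at least 2-fold higher. The median depths were 5654 UMIs in the members and 6442 in neuron-like cells. After each cell was thinned to 1000 UMIs, the share of members was 42.6%. *Zic4* was at 175 CPM (146–209) and had a UMI in 69 members. *Zic1* (chr9:91240111-91247863) and *Zic4* (chr9:91244149-91271402) overlap by 3715 bases on opposite strands, and whether the counting used strand is not given in the sources used here, so the split between them is uncertain.

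*Zic5* and *Zic2* had 36 and 11 UMIs in the members, and *Zic1* or *Zic4* was found in 114 members. *Foxc1*, the rule gene, was at 112 CPM and its relative *Foxc2* at 64.7 CPM (47.2–86.5), with a UMI in 57 and 32 members. The T-box gene *Tbx18* and the forkhead gene *Foxd1* were at 27.3 and 14.4 CPM.

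Signals and enzymes of the list were higher too. *Aldh1a2*, which makes retinoic acid, was at 371 CPM (327–419) against 17.9, a ratio of 20.7 (17.6–24.3). *Rdh10*, the enzyme of the step before it, was at 138 CPM (112–168) against 14.1. *Bmp7*, a bone morphogenetic protein of the meninges, was at 254 CPM (218–295) against 28.9. *Wnt6* had 50 UMIs in the members and 47 in the other barcodes together, which was short of the minimum for comparison. *Aldh1a2* and the transporter *Slc6a13* were found together in 38 members, where the product of their shares would give 33.4.

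Genes of the cell surface and of barriers followed. *Gja1*, the main gap junction protein of meningeal fibroblasts, was at 792 CPM (727–861) against 99.4, a ratio of 7.97 (7.25–8.75), and had a UMI in 114 members. *Cldn11*, a tight junction protein of the arachnoid, was at 252 CPM (216–292) against 12.1, a ratio of 20.8 (17.1–25.3), with a UMI in 60 members. *Slc6a13*, a GABA transporter of the leptomeninges, was at 162 CPM (134–195) against 6.37, a ratio of 25.5 (19.8–32.9), with a UMI in 55 members. *Ngfr*, the low-affinity neurotrophin receptor, was at 252 CPM against 40.9. The connexin *Gjb2* was at 70.4 CPM against 3.14, and *Gjb6* at 21.6.

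*S100a6*, *Angptl2* and the laminin chain *Lama1* completed the higher genes, with ratios of 2.30 (1.84–2.84), 4.13 (3.08–5.45) and 4.36 (3.08–6.03). The lower ones were *Crabp2*, a retinoic acid binding protein, at 24.4 CPM against 158, and *Alpl*, a phosphatase, with 1 UMI and a ratio of 0.319 whose interval (0.00799–1.82) includes no difference. *Fxyd5* had 0 UMIs in the members and 4.91 CPM in the others, which lies near the floor. Further genes of the list had few UMIs: *Slc22a6* had 8 UMIs, *Dpp4* 4, *Ptgds* 1, *Slc47a1* 1 and *Slc22a8* 0, and *Mgp* had 8.

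Per cell, a member held a median of 9.5 of these 31 genes (range 1–15). After thinning to 1000 UMIs, 3 or more of them were found in 66.4% of the members (57.3–74.7), in 1.31% of *Sox10*-positive cells and in 0.143% of neuron-like cells. Without thinning, the shares were 99.2%, 44.2% and 4.13%. *Sox10*-positive cells, 1525 barcodes with a *Sox10* UMI and under 4 rule genes, held some genes of the list often, with a *Gja1* UMI in 52.1% of them and a *Bmp7* UMI in 22.2%.

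**Figure D3:**
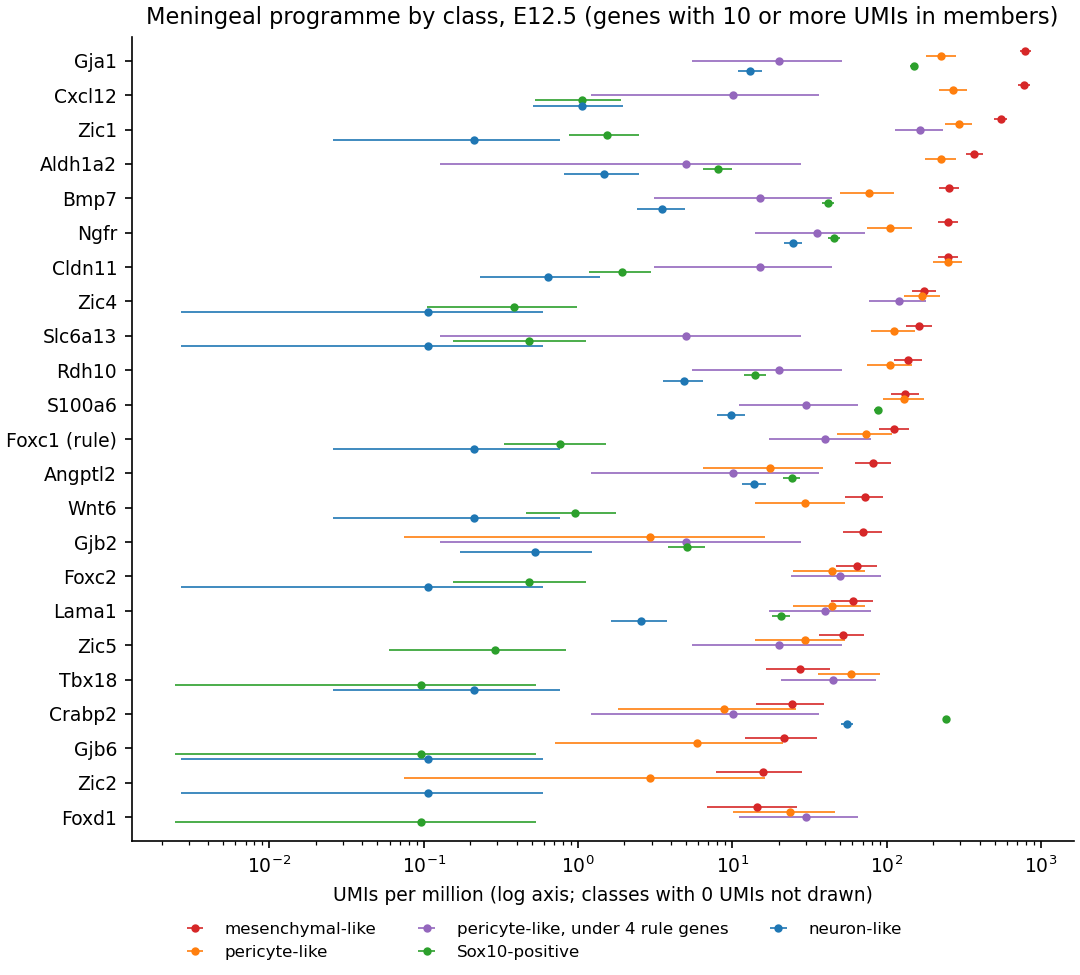
CPM (x axis, log scale) of the genes of the meningeal list with at least 10 UMIs in the members, in mesenchymal-like, pericyte-like (all, and those with under 4 rule genes), *Sox10*-positive and neuron-like cells of E12.5, with exact Poisson 95% intervals; a class with 0 UMIs has no point. The members lie furthest right for *Gja1*, *Cxcl12*, *Zic1* and *Aldh1a2*, while *Crabp2* lies furthest right in *Sox10*-positive cells.

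The fibroblast programme was described by lists of collagens, matrix proteins and the enzymes that process them. Of the collagens on these lists, most were higher in the members. Of the 8 fibrillar collagens outside the rule, 5 were compared and 5 were at least 2-fold higher, with a median ratio of 3.20. *Col5a2* and *Col5a1*, chains of the type V collagen that nucleates fibrils, were at 198 CPM (167–234) and 76.2 CPM (57.1–99.6), against 51.2 and 10.2 in the other barcodes. *Col11a1* was at 171 CPM against 56.8, *Col2a1*, the cartilage collagen, at 80.5 against 25.3, and *Col27a1* at 43.1 against 13.5. *Col24a1*, *Col11a2* and *Col5a3* had 2, 1 and 0 UMIs.

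Of 11 other interstitial collagens, 9 were compared, and 8 of these were at least 2-fold higher. The chains of type VI collagen, a microfibril around cells, had the highest ratios: *Col6a1* 39.2, *Col6a3* 35.9 (25.4–50.7) and *Col6a2* 25.1. *Col26a1* was at 352 CPM (309–399) against 80.5, and *Col23a1* at 257 CPM (221–298) against 91.5. *Col12a1* and *Col14a1*, which coat fibrils, were at 54.6 and 41.7 CPM against 2.79 and 7.30. *Col25a1* was the exception at 23.0 CPM against 31.2.

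Of 14 basement membrane genes compared, 10 were at least 2-fold higher and 0 at least 2-fold lower. *Col4a1* was at 408 CPM (362–459) against 135 and *Col18a1* at 392 CPM (347–442) against 118. *Lama2*, the laminin chain of muscle and nerve basement membranes, stood apart at 252 CPM (216–292) against 10.7, a ratio of 23.5 (19.2–28.7). *Lamc1*, *Lama4* and *Hspg2* were at 54.6, 38.8 and 28.7 CPM, against 58.3, 75.2 and 26.6 in the other barcodes.

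Matrix glycoproteins gave 12 higher and 1 lower of 18 compared, with a median ratio of 4.67. *Fbln1*, a fibulin of elastic fibres, was at 733 CPM (671–799) against 82.0. The fibrillin *Fbn2* was at 519 CPM (467–575) against 87.9, the proteoglycan *Vcan* at 430 CPM (382–481) against 68.5, and fibronectin, *Fn1*, at 122 CPM against 17.4. *Bgn*, a proteoglycan also abundant in pericytes, was at 479 CPM against 35.0. *Sparc*, which binds collagen, was at 1482 CPM against 613. *Postn* and *Mfap4*, often high in fibroblasts, were not higher here, at 103 CPM against 145 and 522 CPM against 800. Elastin, *Eln*, had 59 UMIs in the members and was found in 38 of them, against 1.37 CPM in the others. The genes of the list at 0 UMIs were *Prelp*, *Kera*, *Aspn*, *Thbs2* and *Ccn3*.

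Among 16 compared genes of collagen processing, 9 were higher and 1 lower, with a median ratio of 2.70. *Serpinh1*, the collagen chaperone, had a UMI in all 122 members, at 1822 CPM (1723–1926) against 608. *Pcolce*, which speeds cleavage of procollagen, was at 211 CPM against 23.3, and *Fkbp10* at 171 against 26.1. The cross-linking enzymes *Loxl1* and *Loxl2* were at 69.0 and 63.2 CPM against 6.28 and 9.29, and *Lox* had 38 UMIs in the members against 0.796 CPM in the others. *Ppib*, a chaperone that all cells use, was at 822 CPM against 585.

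Transcription factors of mesenchyme gave a mixed picture: 7 higher and 3 lower of 16 compared, with a median ratio of 1.39. *Meox2*, a homeobox gene of somites and their derivatives, was at 103 CPM (81.0–130) against 1.28, a ratio of 80.7 (51.8–129), with a UMI in 46 members. *Osr1*, a marker of connective tissue progenitors, was at 84.8 CPM (64.6–109) against 1.86, with a UMI in 41 members. *Snai1* was at 50.3 CPM against 3.14 and *Foxp1* at 354 against 119. *Ebf2* and *Zeb2*, which neurons or glia of this library also express, were among the lower ones, at 38.8 and 231 CPM against 211 and 555. Among the genes of this list with 0 UMIs were *Alx4*, *Msx1*, *Msx2*, *Six2*, *Osr2* and *Tcf21*, and *Alx1* and *Tbx15* had 1, while *Twist2* had 24.

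Genes of the sclerotome, cartilage and tendon, derivatives of the somite, were 3 higher and 3 lower of 9 compared, with a median ratio of 0.707. Besides *Meox2* and *Col2a1*, *Tcf15* was higher, at 43.1 CPM against 5.88. *Pax9*, a sclerotome gene, had 27 UMIs in 19 members and 0.310 CPM in the other barcodes. *Meox2* and *Pax9* were found together in 7 members, where the product of their shares would give 7.16. Of the other genes of this list, *Acan*, *Matn1*, *Scx*, *Nkx3-2* and *Uncx* had 0 UMIs, *Pax1* had 3, *Sox9* had 5 and *Tnmd* had 9. Of the dermis and muscle list, the myogenic genes *Myf5*, *Myod1*, *Myog* and *Pax7* and the dermal genes *Dpt* and *En1* had 0 UMIs, 1 of 4 compared genes (*Crabp1*, 38.8 CPM against 9.46) was higher and 2 were lower. Of 3 compared genes of the nerve sheath fibroblast list, 1 was higher, *Apod* at 89.1 CPM against 32.1, and 0 were lower, with a median ratio of 1.03, and *Perp* and *Ccl11* had 0 UMIs.

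The *Hox* genes, which encode position along the body axis, gave 4 higher and 5 lower of 20 compared, with a median ratio of 0.638, and 26 of 39 had a UMI in the members. The higher ones were all of the *Hoxc* cluster: *Hoxc8* at 63.2 CPM, a ratio of 16.8, *Hoxc6* at 60.4, a ratio of 9.29, *Hoxc9* at 37.4, a ratio of 3.84, and *Hoxc5* at 38.8, a ratio of 3.64. The lower ones, *Hoxa4*, *Hoxb3*, *Hoxb4*, *Hoxb5* and *Hoxd4*, were all of the other clusters. Neighbouring *Hox* genes overlap in annotation, so the split between members of a cluster is uncertain.

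Pericyte-like cells, 51 barcodes with 3 or more of 8 pericyte genes and no *Sox10*, share part of the collagen programme and were compared next. *Igfbp5* and *Penk* were the genes highest in the members relative to them, and contractile genes were the lowest. Of 1719 genes with at least 100 UMIs over both classes, 113 (6.57%) were at least 2-fold higher in the members and 63 (3.66%) at least 2-fold lower. The contrast for mural genes is partly set by the definitions, since members lack *Rgs5* and *Kcnj8* and pericyte-like cells were picked by genes that include *Rgs5*, *Kcnj8*, *Notch3*, *Abcc9* and *Vtn*.

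*Igfbp5*, which binds insulin-like growth factors in the matrix, had the highest ratio to pericyte-like cells, at 1181 CPM (1102–1265) against 26.5, a ratio of 44.6 (23.4–98.0). It had a UMI in 93 members and up to 40 in a cell. *Penk* came next at 233 against 5.88 CPM, a ratio of 39.6 (10.8–330) that rests on 2 UMIs in pericyte-like cells. The actin regulator *Rflnb* (152 against 11.8 CPM), the secreted proteins *Scube1* (234 against 29.4) and *Fibin* (151 against 20.6), *Mcc* (183 against 23.5), the transcription factor *Aff3* (351 against 55.9) and the membrane-linked *Svil* (382 against 70.6) followed. *Ctnna2* and *Kcnmb2*, at 1069 against 176 CPM and 313 against 44.1, are expressed by the neurons too, at 508 and 1029 CPM in neuron-like cells.

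Smooth muscle actin, *Acta2*, was the lowest in the members relative to pericyte-like cells, at 21.6 CPM (12.1–35.6) against 4038, a ratio of 0.00534 (0.00298–0.00884). It was found in 6 members, and 1 of these held 7 of its 15 UMIs. *Tagln* was at 30.2 CPM against 1547, *Myl9* at 131 against 1603, *Actg2* at 4.31 against 559 (3 UMIs, ratio 0.00772, 0.00158–0.0229) and *Actn1* at 50.3 against 303. The transcription factor *Mef2c*, the binding protein *Igfbp7*, the heat shock protein *Hspb1* and the imprinted gene *Dlk1* were at 14.4, 25.9, 15.8 and 172 CPM against 406, 700, 265 and 1129. *Vtn*, one of the pericyte genes, was at 122 CPM against 1232.

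The fibroblast lists were set against pericyte-like cells too. Of all genes in this comparison, 6.57% were at least 2-fold higher in the members and 3.66% at least 2-fold lower. Each list had few genes compared, so its counts are a description. The basement membrane list summed to 1996 CPM in the members and 2044 CPM in pericyte-like cells, with 1 of 6 compared genes higher, 0 lower and a median ratio of 1.04. Collagen processing genes summed to 3732 and 3615 CPM, with 0 of 5 higher or lower and a median ratio of 1.02. Of the matrix glycoproteins outside the rule, 3 of 11 were higher and 0 lower, with a median ratio of 1.28. Of the other interstitial collagens, 2 of 5 were higher and 1 lower, with a median ratio of 1.84. Of the fibrillar collagens outside the rule, 1 of 2 was higher and 0 lower, with a median ratio of 1.71. The mesenchymal transcription factors outside the rule gave 0 higher and 1 lower of 5, with a median ratio of 0.813.

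**Figure D4:**
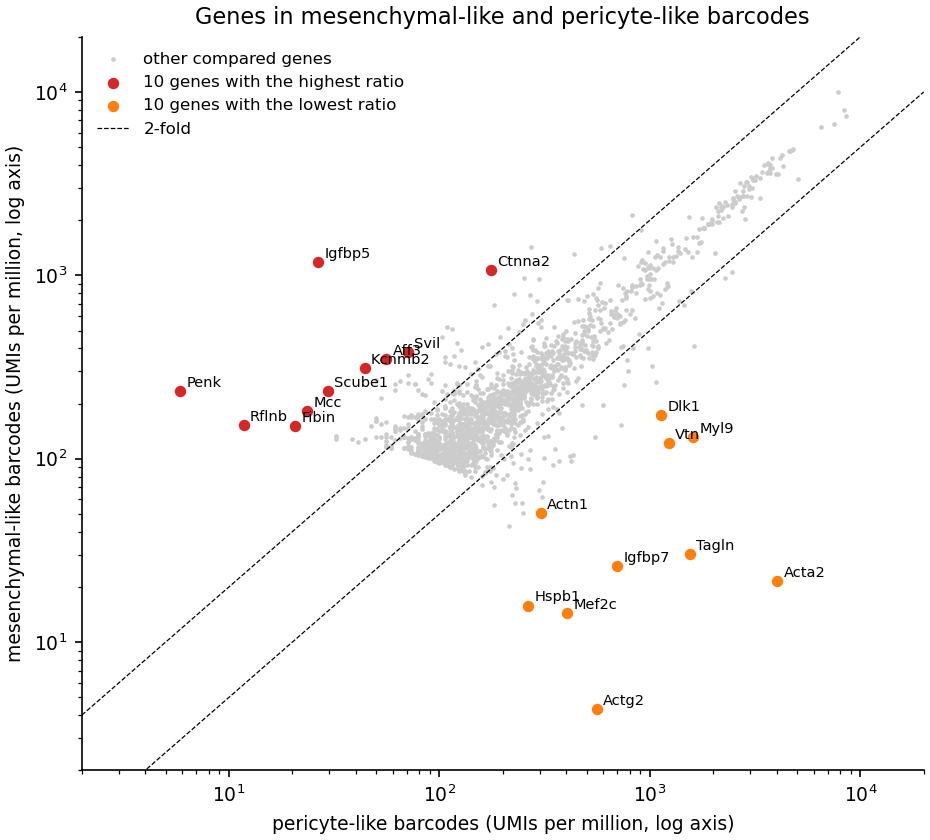
CPM of each compared gene in the 51 pericyte-like cells (x axis) and in the 122 mesenchymal-like cells (y axis), both log axes, with the 10 highest and 10 lowest ratios in colour and dashed lines at 2-fold. *Igfbp5* (1181 against 26.5 CPM) and *Penk* lie far above the upper line and *Acta2* (21.6 against 4038 CPM) far below the lower one.

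Of 11 genes of the meningeal list compared with pericyte-like cells, 4 were at least 2-fold higher in the members, beside 6.57% of all genes compared, *Gja1* (ratio 3.50, 2.75–4.50), *Bmp7* (3.33, 2.20–5.23), *Cxcl12* (2.88, 2.30–3.63) and *Ngfr* (2.38, 1.65–3.50), and 0 were 2-fold lower, beside 3.66%. *Zic4*, *Cldn11* and *S100a6* had ratios of 1.03, 1.01 and 1.02. However, 21 of the 51 pericyte-like cells had 4 or more rule genes themselves. Against the 30 with under 4, a split chosen after the values were seen, *Cxcl12* was at 10.0 CPM (1.22–36.2), *Gja1* at 20.1 (5.47–51.4), *Cldn11* at 15.1 (3.10–44.0), *Aldh1a2* at 5.02 (0.127–28.0) and *Slc6a13* at 5.02. *Zic1* and *Zic4* were still at 166 CPM (114–232) and 120 CPM (77.1–179) in these 30 cells, against 1.53 and 0.383 in *Sox10*-positive cells. With 3 or more of the 31 genes after thinning counted as positive, 35.3% (22.4–49.9) of all pericyte-like cells and 10.0% (2.11–26.5) of the 30 were positive, against 66.4% of the members.

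The barcodes set aside for a *Rgs5* or *Kcnj8* UMI, 53 with 4 or more rule genes and no *Sox10*, held both sets of genes. They include the 21 pericyte-like cells with 4 or more rule genes, so the classes are not separate. *Cxcl12* was at 714 CPM (629–807) in them and *Zic1* at 538 CPM (465–620), levels whose intervals overlap those of the members. *Aldh1a2* was at 678 CPM (595–768), *Cldn11* at 513 CPM (442–593) and *Slc6a13* at 293 CPM (240–354), above the members. *Acta2* was at 892 CPM, and *Igfbp5* and *Penk* were at 268 CPM (217–327) and 33.5 CPM (17.3–58.5), below the members. The median depth of these barcodes was 6428 UMIs.

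Signalling genes were examined by pathway. For retinoic acid, 7 of 10 compared genes were at least 2-fold higher than in the other barcodes and 1 was lower. Besides *Aldh1a2* and *Rdh10*, these were the retinol receptor *Stra6* (148 CPM against 47.4), the nuclear receptors *Rarb* (111 against 40.8) and *Rarg* (31.6 against 12.1), the reductase *Dhrs3* (87.7 against 28.5) and *Crabp1*. The degrading enzymes *Cyp26a1* and *Cyp26b1* had 0 and 1 UMIs in the members.

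BMP and TGF-beta genes gave 7 higher and 0 lower of 14 compared. Besides *Bmp7*, the ligand *Bmp4* was at 90.5 CPM (69.6–116) against 1.72, a ratio of 52.5 (34.7–80.4), and *Bmp5* at 54.6 CPM against 4.73. *Bmp6* had 29 UMIs in the members, 41.7 CPM against 0.929, too few for comparison. *Tgfbi*, a matrix protein induced by TGF-beta, was at 90.5 CPM against 3.71. The BMP targets *Id1*, *Id2* and *Id3* were at 105, 90.5 and 732 CPM, against 69.2, 130 and 494 in the others.

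Wnt genes gave 5 higher and 2 lower of 10. The ligand *Wnt5b* was at 58.9 CPM against 6.15, *Wnt4* at 25.9 against 6.63 and *Wnt5a* at 51.7, a ratio of 4.72 (3.23–6.71), with the target *Axin2* at 44.6 against 18.1 and the inhibitor *Sfrp1* at 106 against 39.5. *Sfrp5* and *Wif1*, inhibitors that *Sox10*-positive cells held at 106 and 49.5 CPM, had 1 and 3 UMIs in the members. For Hedgehog, 3 of 9 compared genes were higher and 1, *Dhh*, was lower, with a median ratio of 1.33. The receptor and target *Ptch1* was at 115 CPM (91.2–143) against 37.6, the target *Gli1* at 27.3 against 5.22 and *Gli2* at 50.3 against 7.07. The ligands *Shh*, *Ihh* and *Dhh* had 0, 1 and 1 UMIs in the members.

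Of the growth factor list, 7 of 14 compared were higher and 3 lower. The binding proteins *Igfbp2* and *Igfbp4* were at 1314 CPM (1230–1402) and 734 CPM (672–801), against 96.1 and 118, and *Igf1* at 92.0 CPM (70.8–117) against 6.46. *Angpt1*, the ligand of the endothelial receptor Tie2, was at 97.7 CPM (75.9–124) against 3.23. *Igf2* had 10 UMIs in the members and 20 in the whole library. The annotated *Igf2* lies inside another gene, *Gm49394*, so its count may be lowered by the overlap. Of 10 imprinted growth genes compared, 7 were higher, among them *H19* (1535 CPM against 218), *Meg3* (2358 against 558), *Peg3* (147 against 27.6) and *Dlk1* (172 against 40.2), and 0 were lower. Against pericyte-like cells, 0 of 9 were higher and 2 were lower, beside 6.57% and 3.66% of all genes compared. The list summed to 7106 CPM in the members and 8529 CPM in pericyte-like cells.

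Ligands that act on nerves were taken as a list of 27 genes, of which 26 are among the counted genes, and *Nrg1* was not analysed here. Of 14 compared, 4 were higher and 3 lower, with a median ratio of 0.864 against 0.973 over all genes compared, and beside 10.5% higher and 13.5% lower over all genes. Besides *Cxcl12*, the higher ones were midkine, *Mdk* (1771 CPM, 1673–1872, against 842), *Efnb1* (187 CPM against 57.6) and *Edn3*, which acts on *Ednrb* of crest cells (44.6 CPM against 3.14). *Ptn*, *Gas6* and *Sema3b* were lower, with *Ptn* at 378 CPM against 1210. *Ntf3* had 15 UMIs in 15 members and 0.663 CPM in the other barcodes. The neurotrophin *Bdnf* and the ligands *Artn* and *Ntn4* had 1 UMI each, *Ntn1* had 2, and *Gdnf*, *Slit1* and *Sema3d* had 0.

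The semaphorins *Sema3c*, *Sema3e*, *Sema3f* and *Sema3a* had 21, 11, 9 and 8 UMIs in the members. *Slit3* and *Slit2* were at 63.2 and 34.5 CPM against 90.4 and 42.3, *Efna5* and *Efnb2* at 308 and 30.2 against 313 and 29.2, and *Mif* at 661 against 856, all within 2-fold. *Nrtn* had 5 UMIs. Against pericyte-like cells, 2 of 6 compared were higher, *Cxcl12* and *Efna5*, and 0 were lower, beside 6.57% and 3.66% of all genes compared.

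The boundary cap list was low in the members, with 4 of its 6 genes at or under the floor. The list summed to 57.5 CPM in the members, 73.5 in pericyte-like, 35.7 in neuron-like and 525 in *Sox10*-positive cells. Its low level was thus shared with pericyte-like and neuron-like cells. *Egr2*, whose promoter drives the Cre, had 1 UMI in the 122 cells, 1.44 CPM (0.0364–8.01), against 29.6 in *Sox10*-positive cells. *Prss56* also had 1 UMI, against 152 CPM in *Sox10*-positive cells. *Cdh7* had 0, *Wif1* had 3, and *Npr3* and *Hey2* were at 23.0 and 27.3 CPM against 107 and 62.2 in the other barcodes. All 5 compared genes of the list were at least 2-fold lower. The defining markers of the labelled cell type, *Egr2* and *Prss56*, were thus near the floor in these cells at E12.5. What brought them into the Tomato-positive sort was not tested, and a past expression of *Egr2* cannot be read from these counts.

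Markers of the other cell types of the dissection were measured in the members. Without the 13 members with 3 or more neuron genes, 1207 genes were at least 2-fold higher than in the other barcodes and 95 higher than in pericyte-like cells. The part of the other lists in the results was not tested. The 14 neuron genes summed to 466 CPM in the members, 168 CPM in pericyte-like cells and 13033 CPM in neuron-like cells. The gap to neuron-like cells is partly set by the definitions, since these genes picked the neuron-like cells. In the members, *Tubb3* had the most UMIs, at 151 CPM, and *Prph* had 0 UMIs. The UMIs were concentrated: 13 members had 3 or more of the genes, and 3 members with 7 or more held 52.2% of the list's UMIs. Without the 13, the sum was 192 CPM in 109 members. The 12 glia genes, *Sox10* included, summed to 246 CPM against 188 CPM in pericyte-like cells and 5395 CPM in *Sox10*-positive cells. The gap to *Sox10*-positive cells is partly set by the definitions, since *Sox10* was required at 0 in the members and present in those cells. In the members, *Fabp7* had the most UMIs, at 132 CPM, *Sox10* and *Zfp488* were at 0, and 9 of 10 compared were at least 2-fold lower. The 7 crest genes gave 4 lower of 6 compared, with *Ets1* higher (70.4 CPM against 20.3) and *Pax3*, *Tfap2a*, *Tfap2b* and *Foxd3* lower.

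The mural list of 16 genes summed to 322 CPM against 9100 CPM in pericyte-like cells, a gap partly set by the definitions, since *Rgs5* and *Kcnj8* are in the list and pericyte-like cells were picked by several of its genes. *Vtn* had the most UMIs of it in the members, and *Rgs5*, *Kcnj8*, *Ndufa4l2*, *Higd1b*, *Cnn1* and *Myh11* had 0 UMIs, *Rgs5* and *Kcnj8* by the rule. *Pdgfrb*, which fibroblasts express as well, was at 77.6 CPM against 5.70 in the other barcodes. The 10 endothelial genes summed to 70.4 CPM, led by *Cdh5* with 16 UMIs in 9 members, while *Cldn5*, *Kdr* and *Tie1* had 0. The 11 immune genes summed to 28.7 CPM, led by *Cx3cr1*, 10 of whose 12 UMIs came from a single member, with *Ptprc*, *Csf1r*, *Tyrobp*, *Fcer1g* and *Aif1* at 0. The 9 erythroid genes summed to 5.75 CPM, led by *Hbb-y* with 3 UMIs, and 7 genes were at 0.

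The 6 melanoblast genes summed to 23.0 CPM, of which *Kit* gave 14 UMIs, with *Dct*, *Pmel*, *Tyrp1* and *Mlana* at 0. The 6 epithelial genes summed to 4.31 CPM, led by *Krt18* with 2 UMIs, with *Krt5*, *Krt8*, *Krt14* and *Cldn6* at 0. Of 8 genes of spinal cord progenitors, *Sox1*, *Sox2*, *Sox3*, *Pax6*, *Olig2* and *Dbx1* had 0 UMIs, *Hes5* had 1 and *Nkx6-1* had 24. *Nkx6-1*, a homeobox gene best known from the ventral spinal cord, was found in 22 members at 34.5 CPM (22.1–51.3), at 29.4 CPM in pericyte-like cells, and at 0 UMIs in *Sox10*-positive and neuron-like cells.

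**Figure D5:**
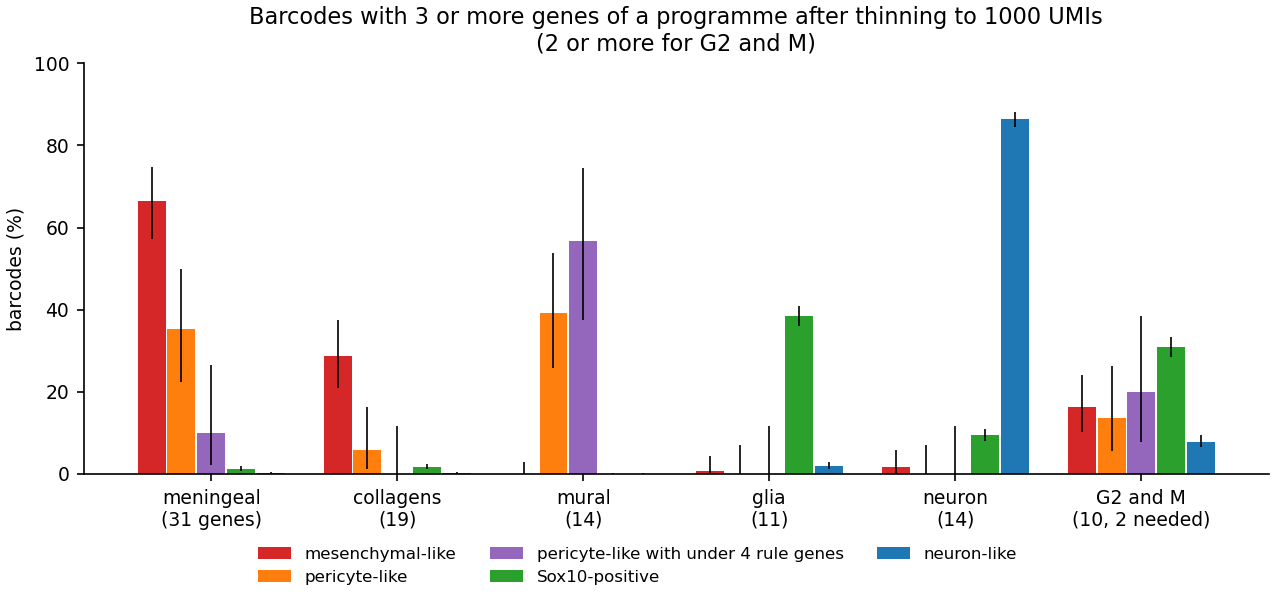
Share of barcodes (y axis, %) with 3 or more genes of each programme (rule genes left out), or 2 or more G2 and M phase genes, after thinning to 1000 UMIs, in 5 classes of E12.5 cells, with exact binomial 95% intervals. The members stand highest for the meningeal (66.4%) and collagen (28.7%) programmes and at 0% for the mural one.

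How the members varied among themselves was described by their cell cycle genes and by clustering. With 2 or more of 10 G2 and M phase genes after thinning taken as cycling, 20 of 122 members (16.4%, 10.3–24.2) passed, against 13.7% (5.70–26.3) of pericyte-like, 30.9% (28.6–33.3) of *Sox10*-positive and 7.91% (6.55–9.45) of neuron-like cells. The unthinned shares were 35.2%, 31.4%, 59.6% and 20.2%. S phase genes were not part of this call. With 2 or more of 8 S phase genes after thinning, the shares of the same classes were 12.3%, 9.80%, 22.6% and 4.35%. Unthinned, they were 53.3%, 60.8%, 76.0% and 34.7%. *Top2a*, which untangles replicated DNA, was at 141 CPM in the members and 236 in *Sox10*-positive cells. Of the 8 S phase genes compared with the other barcodes, 0 were 2-fold higher or lower. Early response genes known to rise during tissue dissociation were higher in the members in 5 of 7 compared, with *Fos* at 434 CPM against 87.0 and *Egr1* at 126 against 23.0, and close to pericyte-like cells, with *Fos* at 447 and *Egr1* at 124. Their part in the results was not tested.

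Clustering into 4 groups on 10 principal components, with the rule genes left out, gave groups of 94, 26, 1 and 1 cells. The first component held 3.32% of the variance. The group of 26 was led by *Incenp*, *Ube2c* and *Ccna2*, genes of mitosis, and 25 of its cells had 2 or more unthinned G2 and M genes. The group of 94 was led by *Cacna2d3*, *Tmem150a* and *Tmem164*. These had 1, 3 and 3 UMIs in the other members, so their rank rests on few counts. The single cells had 1490 and 1814 UMIs, near the lower end of the range, and both had *Malat1* among their leading genes. *Lum* was at 1501 CPM (1398–1611) in the group of 94 and 941 CPM (802–1096) in that of 26, and *Igfbp5* at 1351 CPM (1253–1455) and 688 CPM (571–823). *Zic1* was at 521 CPM (461–587) and 637 CPM (524–767), and *Cxcl12* at 807 CPM (731–888) and 671 CPM (555–804), with intervals that overlap. The intervals of *Foxc1*, *Zic4*, *Slc6a13*, *Aldh1a2*, *Cldn11*, *Bmp7* and *Ngfr* overlapped too. Those of *Gja1*, at 847 CPM (770–930) and 625 CPM (513–754), did not. Nor did those of *Pax9*, at 25.1 CPM (13.4–42.9) and 80.3 CPM (43.9–135). *Lum* helped to choose the members, and the groups were made from the same cells, so these levels are a description.

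*Osr1* and *Meox2* were found in 41 and 46 members and in 12 together, where the product of their shares would give 15.5. At these depths a gene of low level is missed in many cells that express it, so absence in a cell carries little weight. A UMI of 4 Y-linked genes was found in 85 members (69.7%, 60.7–77.7) and *Xist*, the RNA of the inactive X chromosome, in 0. In all barcodes of the libraries *Xist* had 1 UMI at E12.5 and 3217 at E11.5, so the libraries stand apart in this respect.

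At E11.5, the same rule with the minimum of 2000 UMIs that the study's methods give for that library found 7 of 840 kept barcodes, 0.833% (0.336–1.71), against 3.42% at E12.5. The stage, the litter and the library cannot be told apart, and the minimum depth differed. These 7 cells held 65762 UMIs, so that 3 UMIs are 45.6 CPM. *Cxcl12* was at 836 CPM (630–1089) in them against 1.25 in the other E11.5 barcodes, *Zic1* at 426 CPM (283–615) against 19.3, and *Aldh1a2* at 319 CPM (198–488) against 20.9. All 3 intervals overlap those of E12.5. *Igfbp5* was at 350 CPM (222–525), below the 1181 of E12.5, and *Penk* had 1 UMI. *Cldn11* and *Slc6a13* had 2 UMIs each, 30.4 CPM (3.68–110), against 252 and 162 CPM at E12.5. Of the 31 meningeal genes, 21 had a UMI in these 7 cells, and *Egr2* and *Prss56* had 0. The libraries shared 9 barcode sequences, and 0 of them were mesenchymal-like cells of E12.5.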

How the data were processed

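Single-cell RNA sequencing counts of 2 libraries were used, 1 per stage, with 1 pooled litter each. The deposited values are whole-number UMI counts per gene and called barcode, not normalized, and the authors made them with Cell Ranger (7.0 in the submitters' processing notes, 7.0.1 in the matrix header) on an mm39 reference. Cell filters had not been applied in the files, and the limits of the methods text (10% mitochondrial UMIs, at least 1000 UMIs at E12.5 and 2000 at E11.5) were applied here. The doublet filter of the methods, a Scrublet score of 0.2 or more (run in scanpy 1.11.5), was an alternative. It marks 67 kept barcodes (1.88%), 2 of them members.

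The members and the 35 gene lists were chosen with earlier results of these data known. Counts were summed per class. *Sox10*-positive cells had a *Sox10* UMI and under 4 of the 9 rule genes. Pericyte-like cells had 3 or more of *Rgs5*, *Kcnj8*, *Abcc9*, *Notch3*, *Vtn*, *Cspg4*, *Higd1b* and *Ndufa4l2* with no *Sox10*, and were no members. Neuron-like cells had 4 or more of 14 neuron genes, no *Sox10* and under 4 rule genes, and were not pericyte-like. Genes with 100 UMIs over both classes were compared, those past a ratio of 2 or under 0.5 were counted, and a sum of 0 was set to the floor of 3 UMIs. Genes named are the rule genes, the 20 with the highest ratio to the other barcodes among genes with 100 UMIs in the members, the 10 highest and lowest against pericyte-like cells, the 10 with the most UMIs, the 3 leading genes of a sub-group, and of each list abundant genes and genes past 2-fold, the rest being given as counts. The meningeal, fibrillar collagen, boundary cap and nerve ligand lists are named gene by gene, and some genes that this rule names are not reported here. Where single genes at 0 or low counts are named besides, they were chosen after their values were seen.

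Thinning drew 1000 UMIs per cell without replacement. Ward clustering used log-scaled counts of 2000 variable genes. Intervals are from scipy 1.17.1. The script for the ratios and their intervals was checked on counts simulated with known ratios, which bears on the code and not on these data. Gene positions are from the annotation of GRCm39.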

Additional observations from a re-analysis of the deposited data

How the results depend on the processing

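No paired analysis was possible because each stage has 1 library. Requiring no gene at 0 raised the number of mesenchymal-like cells from 122 to 198. The genes at least 2-fold higher than in the other barcodes, 1190, became 7561 with no minimum of UMIs per gene and 391 at 4-fold. Those higher than in pericyte-like cells, 113, became 289 with no gene required at 0, 1522 with no minimum, 54 with a minimum of 200 UMIs, 21 at 4-fold and, in an alternative chosen after seeing the data, 180 against the 30 pericyte-like cells with under 4 rule genes. The meningeal genes counted as higher, 14, became 28 with no minimum. The share of members in cycle by G2 and M phase genes, 16.4%, became 35.2% without thinning and 29.5% with 1 such gene needed. The counts with no minimum include genes of a few UMIs. The other alternatives, a minimum of 2000 UMIs per cell, at most 5% mitochondrial UMIs, 3 or 5 rule genes, leaving out cells with a high doublet score or with 3 or more neuron genes, and the mean of per-cell CPM, kept each count within 1.5 times, and thinning to 2000 UMIs gave a share in cycle of 24.1%. With 695783 UMIs in all members, a gene under 4.31 CPM cannot be told from 0, and no replicate bounds any difference.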
